A study of Bos taurus with 8 samples.

Results

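The genes described here are 10 fibroblast and connective tissue matrix genes of cattle, measured in rumen epithelium on 8 single-colour microarrays. They are the collagen genes COL1A1, COL1A2 and COL3A1, the matrix proteins FN1, SPARC and POSTN, the proteoglycans DCN and LUM, and the receptors PDGFRA and PDGFRB. Members were taken by the gene name of the array design, with the brightest probe for each gene. Each of the 10 has 1 probe among the 15008 probes of the array, so no gene has a second probe to set beside the first. A gene entered the test if the scanner software called its probe well above background on 4 or more of the 8 arrays. This held for 9 of the 10, of which 8 were above background on all arrays, and not for PDGFRB.

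The rumen is the fermentation chamber of the cow's foregut and is lined by a stratified epithelium without glands. Beneath it lies a lamina propria whose fibroblasts build the extracellular matrix. Type I and type III collagen form its fibrils, decorin and lumican bind to them and shape their spacing, and fibronectin and SPARC take part in their assembly. A biopsy labelled as epithelium can hold some of this layer, and its matrix transcripts then come with it.

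The animals were rumen-fistulated Holstein bulls, 5 in the study, aged 7.4 ± 0.3 months and weighing 215.2 ± 20.4 kg per the series text. Each received, for 14 days apiece and with no wash-out between them, a high-grain control diet based on corn flakes and a WP diet, in which wood kraft pulp stood in for 50% of the flakes. Arrays from 4 of the animals, calves 21, 23, 24 and 25, were analysed here, 1 per calf and diet. Both groups shared the fistula and the base ration, and differed in the replaced flakes. The order of the diets in each calf, and how the epithelium was separated from the layer below, are not given in the sources used here. Each diet is represented by the same 4 animals, so that the calf is the replicate.

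The arrays held between 9314 and 11917 probes well above background. The WP array of calf 24 had the most, and it stood apart in its control spots as well. Its negative controls had a median signal of 4.06, against 1.2 to 1.90 on the other arrays, and its E1A control probes, which target a viral sequence, read 40.7 against 1.36 to 1.97. The basal keratin KRT5 had a signal of 16983 to 34603 and its partner KRT14 of 7535 to 17439, so the labelled epithelium carried its defining keratins on every array. Markers of the layers below were present too: 10 of 12 endothelial, 7 of 11 smooth muscle and pericyte, and 9 of 15 further fibroblast genes were well above background on all 8 arrays. Among the exceptions were the endothelial cadherin CDH5, above background on 0 arrays, the stem and stromal marker CD34 on 1 and the muscle filament desmin (DES) on 2. A level below is the log2 processed signal of a probe less the 75th percentile of its array, and it is compared between arrays, never between probes.

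Probe sequences are shown for 6 genes whose behaviour the results turn on: the 2 chains of type I collagen, which varied differently, POSTN, which stood apart from the rest, FN1 and LUM, which did not, and PDGFRB, which was not detected on most arrays. Each is the probe as the array design gives it, 5′ to 3′, with the position that the array design gives on UMD 3.1. Capitals in COL1A1 mark GGN triplets, where N is any base, that lie 9 or 10 bases from another.
COL1A1 (chr19:37100714-37100917, plus strand): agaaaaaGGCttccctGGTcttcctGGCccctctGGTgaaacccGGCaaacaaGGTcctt
COL1A2 (chr4:11660663-11660722, plus strand): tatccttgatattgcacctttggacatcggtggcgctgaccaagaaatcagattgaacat
POSTN (chr12:24258791-24258850, plus strand): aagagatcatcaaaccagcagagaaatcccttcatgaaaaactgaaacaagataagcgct
FN1 (chr2:103882111-103882523, minus strand): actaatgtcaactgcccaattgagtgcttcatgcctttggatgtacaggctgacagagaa
LUM (chr5:21041542-21041601, minus strand): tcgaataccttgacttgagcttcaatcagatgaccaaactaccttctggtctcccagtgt
PDGFRB (chr7:63502612-63502671, minus strand): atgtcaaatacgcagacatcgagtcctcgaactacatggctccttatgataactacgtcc

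The triple helix of collagen repeats a glycine in each unit of 3 residues, and glycine codons begin with GG, so such triplets recur every 9 bases in the helical part of a collagen transcript. The COL1A1 probe holds 6 of them, starting at bases 8, 17, 26, 35, 45 and 54 from its 5′ end. The spacing is 9 bases in 4 of the 5 steps and 10 in the step from base 35 to base 45. A run of 3 triplets at 9-base spacing, GGNNNNNNNGGNNNNNNNGGN, was found on the strand as given of 192 of 15008 probes (1.28%) and on either strand of 406 (2.71%). Among the 10 members it was found in COL1A1 alone. The COL1A1 probe covers 204 bases of genome and the FN1 probe 413, more than their length of 60 bases, while the other 8 probes cover 60. GC content ran from 35% to 55% across the 10 probes, with COL1A1 the highest, against a median of 45% over the array. The remaining members lie at chr2:7317348-7317407 (COL3A1, minus strand), chr5:21080361-21080420 (DCN, minus strand), chr7:64879160-64879219 (SPARC, minus strand) and chr6:71418503-71418562 (PDGFRA, plus strand). The exon or UTR under each probe was not analysed here.

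The first question is how the fibrillar collagens and their companions differed between the diets within each calf. COL1A2 and COL3A1 had higher values on the WP diet in calves 23, 24 and 25 and lower values in calf 21. None of the 9 tested genes passed the adjusted threshold. In a bulk sample fewer fibroblasts and less RNA per fibroblast cannot be told apart.

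COL1A2, the second chain of type I collagen, had levels of 3.68, 1.89, 2.61 and 1.17 on the control diet in calves 21, 23, 24 and 25. On the WP diet they were 2.20, 2.28, 3.95 and 3.37 in the same order. The groups overlapped: the control array of calf 21 was among the highest and that of calf 25 was the lowest. The mean difference was 0.61 ± 1.58 (SD over the 4 calves), which is a 1.53-fold higher signal with WP, and the limma adjusted p was 0.745. COL3A1, the chain of type III collagen, followed it closely. Its control levels were 4.33, 2.60, 2.93 and 1.72, and its WP levels 2.89, 2.97, 4.35 and 4.04. The difference was 0.66 ± 1.61 (limma adjusted p = 0.736). Within calf 21 the differences were -1.49 for COL1A2 and -1.44 for COL3A1, and within calf 25 they were 2.20 and 2.31. Without calf 21 the mean differences were 1.31 and 1.36, and without calf 25 they were 0.080 and 0.11.

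COL1A1, which encodes the other chain of type I collagen, varied little on its 1 probe. Its levels were 0.76, 0.53, 0.46 and 0.59 on the control diet and 0.49, 0.43, 0.90 and 0.50 on the WP diet. All 8 lay within 0.47 log2, against a range of 2.77 for COL1A2. The difference was -0.0065 ± 0.31 (SD, n = 4; limma adjusted p = 0.993), and its sign turned to 0.0081 with cyclic loess scaling. In type I collagen the products of both genes assemble into 1 helix. How well the COL1A1 probe, with its step of 10 bases, reads the transcript was not tested.

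Fibronectin (FN1), a glycoprotein that binds cells and collagen, repeated the pattern of COL1A2. Control levels were 0.05, -1.60, -0.42 and -2.10 in calves 21, 23, 24 and 25, and WP levels -0.89, -0.97, 0.51 and -0.76. The WP array of calf 24 was the highest and the control array of calf 25 the lowest, and the groups overlapped. The difference was 0.49 ± 0.99 (limma adjusted p = 0.696). Leaving out calf 21 gave 0.97, and leaving out calf 25 gave 0.21. SPARC, a collagen-binding secreted protein, had control levels of -0.14, -1.54, -1.12 and -1.81 and WP levels of -1.20, -0.76, -0.12 and -0.62. Calf 21 had a WP minus control difference of -1.05, against 0.78, 1.01 and 1.19 in calves 23, 24 and 25. Its mean difference was 0.48 ± 1.04 (limma adjusted p = 0.710). Without calf 21 it was 0.99, without calf 24 it was 0.31 and without calf 25 it was 0.24.

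**Figure D1:**
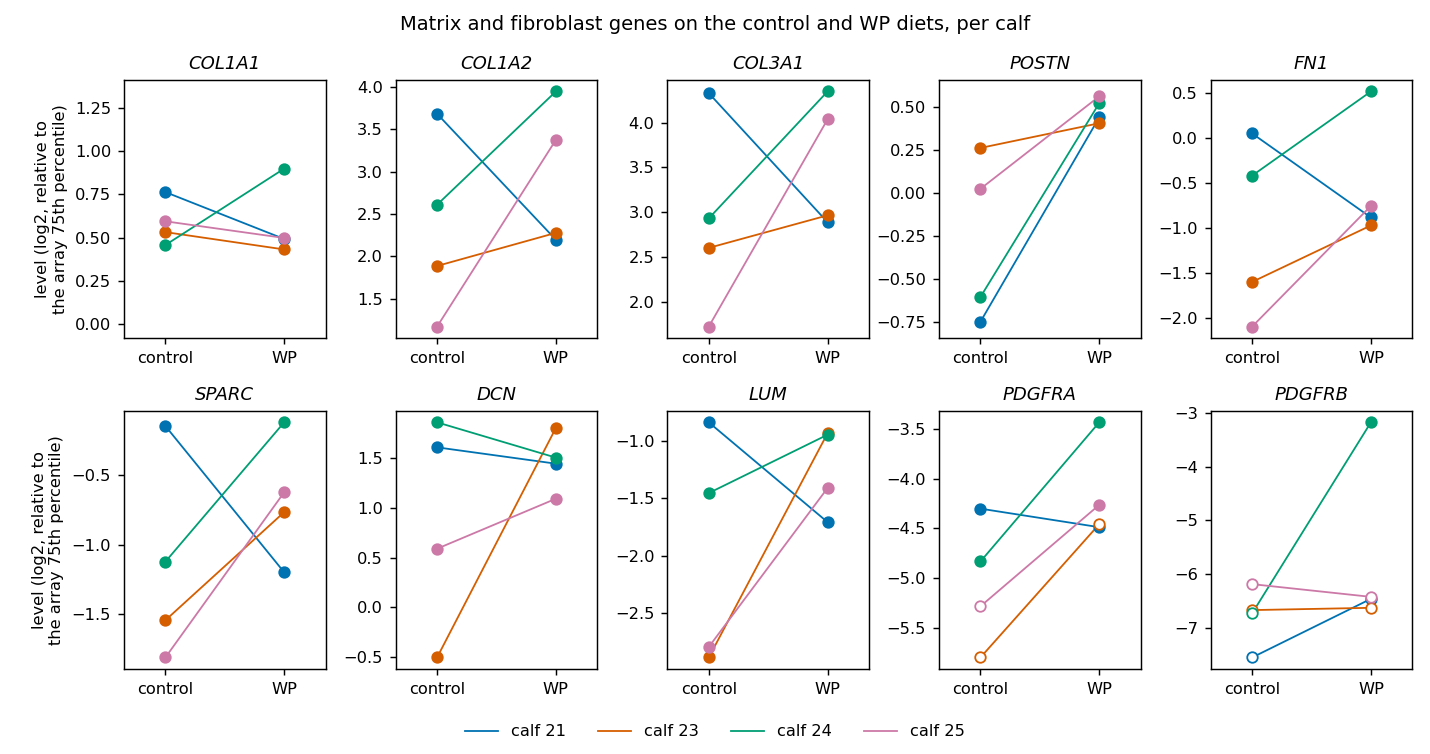
Level of each of the 10 genes (y axis, log2 relative to the array's 75th percentile, with its own scale in each panel) on the control and WP diets (x axis). Each colour is a calf, lines join its 2 arrays, and open circles were not well above background. COL1A2, COL3A1, FN1 and SPARC are lower on the WP diet in calf 21 and higher in the other calves, the WP levels of POSTN all lie above its control levels, and PDGFRB is filled on the WP array of calf 24 alone.

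Decorin and lumican are related small leucine-rich proteoglycans that coat collagen fibrils, and they were led by calf 23. LUM had control levels of -0.84, -2.89, -1.46 and -2.79 and WP levels of -1.71, -0.94, -0.95 and -1.41. The control arrays of calves 23 and 25 were the low ones, while the control array of calf 21 was the highest of all 8. The difference was 0.74 ± 1.23 (SD, n = 4; limma adjusted p = 0.669). Leaving out calf 21 gave 1.28, and leaving out calf 23 gave 0.34. DCN had control levels of 1.61, -0.50, 1.86 and 0.59 and WP levels of 1.44, 1.80, 1.51 and 1.09. Here 1 low array, the control of calf 23, set most of the difference, which was 2.30 in that calf and -0.16, -0.35 and 0.50 in calves 21, 24 and 25. The mean of DCN was 0.57 ± 1.21 (limma adjusted p = 0.704), and -0.0054 without calf 23.

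Periostin (POSTN), a matrix protein secreted by fibroblasts that binds collagen and integrins, was higher with WP than without it in each of the 4 calves. Control levels were -0.75, 0.26, -0.60 and 0.02 and WP levels 0.44, 0.40, 0.52 and 0.56 in calves 21, 23, 24 and 25. All 4 WP arrays lay above all 4 control arrays, and the WP arrays lay close together. The SD was 0.072 on the WP diet and 0.49 on the control diet. The difference was 0.75 ± 0.50 (SD, n = 4), a 1.68-fold higher signal with WP. It had an unadjusted p of 0.0174 in limma and an adjusted p of 0.658, so it did not pass. Under 17 alternatives the difference ran from 0.58 to 0.95 and the adjusted p from 0.346 to 0.938. POSTN was the 1 tested member of 9 whose groups did not overlap (11.1%), where 3.67% of all tested probes had every WP array above every control array. It was also the 1 member that was higher in 4 of 4 calves, which held for 12% of probes.

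PDGFRA and PDGFRB are receptor tyrosine kinases for platelet-derived growth factors, the first a general marker of fibroblasts and the second shared with the pericytes of small vessels. Both were dim. PDGFRA signals were between 5.16 and 26.5, and the probe was well above background on 3 WP and 2 control arrays. Its control levels were -4.30, -5.80, -4.83 and -5.29 and its WP levels -4.49, -4.46, -3.43 and -4.26. Calf 21 gave a WP minus control difference of -0.19, while calves 23, 24 and 25 gave 1.34, 1.40 and 1.02. The difference was 0.90 ± 0.74 (unadjusted p = 0.0296, limma adjusted p = 0.658). Its size depended on the handling of dim probes and scaling: it was 0.33 with normexp background correction, 0.34 with cyclic loess and 0.20 with quantile scaling.

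PDGFRB had a signal of 1.72 to 2.90 on 7 arrays and of 31.5 on the WP array of calf 24, where alone it was well above background. That is the array whose negative control and E1A spots read high, and the part of those readings in the PDGFRB signal was not tested. The probe was not well above background on the 4 control arrays, and the WP mean of -5.67 lay below the mean of -5.39 that detection allows there, so no fold is given.

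Over the 9 tested members, 0 passed an adjusted p of 0.05 in limma, as did 0 of all 10236 probes tested (0%). At an unadjusted p below 0.05, 2 of 9 (22.2%) were higher, POSTN and PDGFRA, and 0 were lower, where 5.24% of all tested probes were higher and 1.75% lower, or 6.99% in either direction. Over all probes this split, 536 higher and 179 lower, depended on scaling, with 192 and 336 under quantile and 305 and 357 under cyclic loess scaling. Mean differences were positive for 8 of 9 members, with a median of 0.61, against 64.4% of 10200 tested genes and a median of 0.09. The direction was not the same in every calf. In calf 21, 8 of 9 members were lower on the WP diet, all but POSTN, with a median of -0.87, although 60.05% of all tested genes were higher in that calf. In each of calves 23, 24 and 25, 8 of 9 were higher, all but COL1A1 in calves 23 and 25 and all but DCN in calf 24. The medians there were 0.63, 1.01 and 1.19, and 53.5%, 64.2% and 50.03% of all genes were higher. Without calf 21 the members' median difference was 0.99 and without calf 25 it was 0.24.

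**Figure D2:**
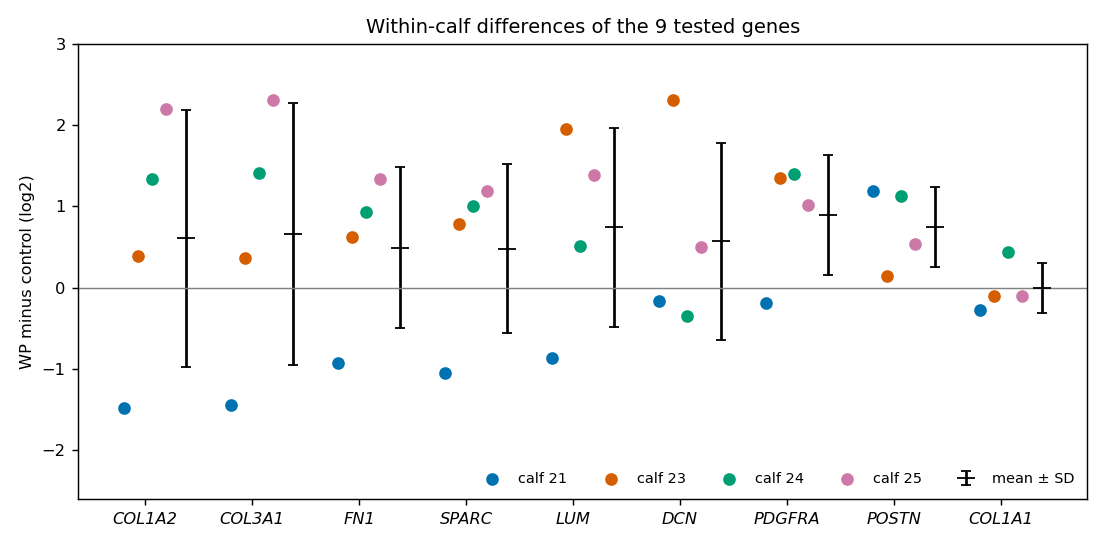
WP minus control within each calf (y axis, log2) for the 9 tested genes (x axis). Coloured points are calves and black bars the mean ± SD of the 4. Calf 21 lies below 0 for 8 of 9 genes, POSTN lies above 0 in all calves, and COL1A1 stays near 0.

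The matrix genes were among the more variable of the array, and their spread was wider on the control diet. The median SD of a member over the 8 arrays was 0.79, against 0.28 for all tested genes, and 8 of 9 exceeded that value, all but COL1A1. The median SD of the within-calf differences was 1.04 for the members and 0.35 for all genes. For 8 of 9 members, again all but COL1A1, the SD was smaller among the WP than among the control arrays. This was so for 43.9% of all tested genes. Most members varied together over the arrays, as given below, so the 8 do not count as independent, and the spread was not tested. For COL1A2 the SDs were 0.85 on the WP and 1.07 on the control diet, and for DCN 0.29 and 1.08.

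The second question is how far the members varied together over the arrays. The 8 arrays come in pairs from 4 calves and are not independent, so correlations are given as descriptions without a test. The median Pearson r over the 36 pairs of tested members was 0.62 (Spearman's median 0.51), against 0.042 over all pairs of 10158 tested genes. Of the 36 pairs, 13 (36.1%) had an r above 0.8, against 2.55% of all pairs. With each calf's mean removed the median was 0.52, against 0.078.

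High values gathered in 6 members, COL1A2, COL3A1, FN1, SPARC, LUM and PDGFRA, a group picked after the correlations were seen. Its 15 pairs had r between 0.79 and 0.99, and the pair closest to each other was COL1A2 and COL3A1, at 0.99. SPARC had the highest r with the mean of the other members, 0.96, followed by PDGFRA at 0.94, COL1A2 at 0.91 and FN1 at 0.91. COL1A1 reached 0.49 and DCN 0.57, though DCN and LUM had an r of 0.86. POSTN went least with the rest: its r with the mean of the others was -0.083 (rho 0.26), and its 8 pairs ran from -0.24 to 0.19. With calf means removed its pairs ran from 0.0017 to 0.55, the highest with PDGFRA. COL1A1 and COL1A2, the paired chains of type I collagen, had an r of 0.60 and a Spearman's rho of 0.33 on 1 probe each.

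**Figure D3:**
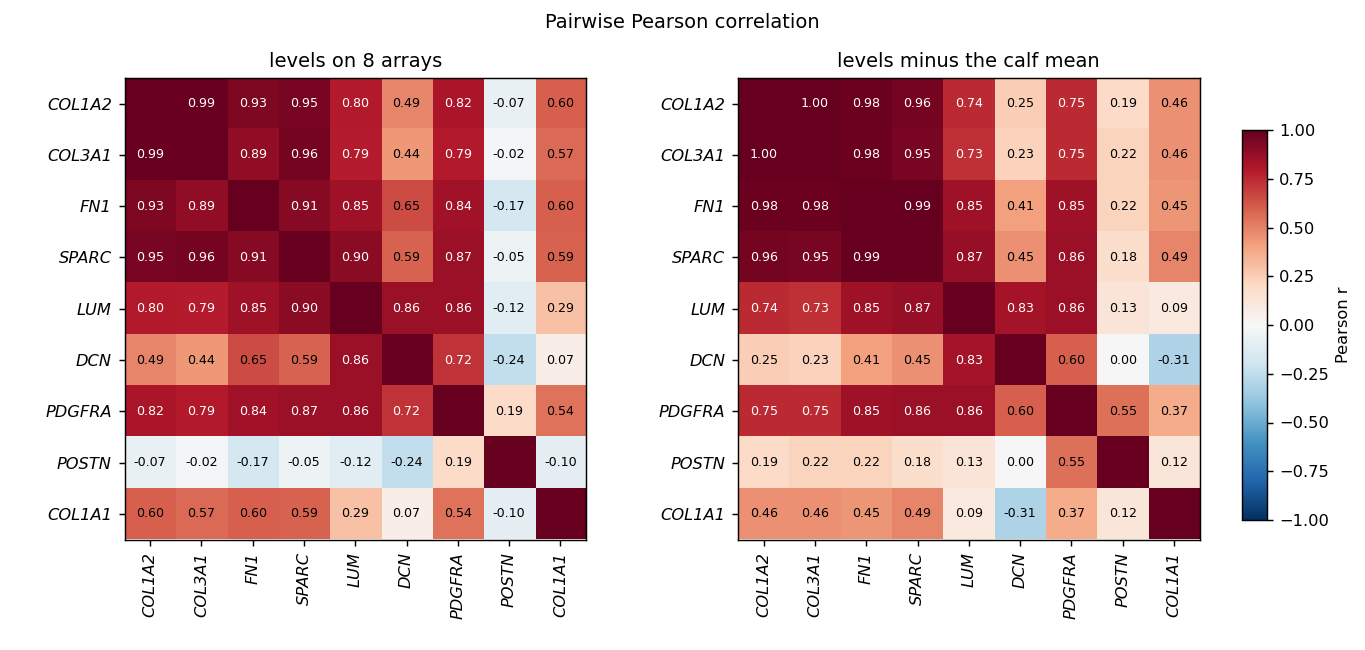
Pearson r between pairs of the 9 tested genes, over the levels on 8 arrays (left) and over the levels minus each calf's mean (right), with red for positive and blue for negative r. COL1A2, COL3A1, FN1, SPARC, LUM and PDGFRA form a block between 0.79 and 0.99 on the left, and POSTN is near 0 with most genes there. On the right the r of POSTN runs from 0.0017 to 0.55.

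By array, the WP sample of calf 24 was the highest of 8 for 6 of the 9 members, and the control samples of calf 25 and calf 23 were the lowest for 4 and 3. Averaged over the members after each was set to mean 0 and SD 1, the WP array of calf 24 stood at 1.22 and the control array of calf 21 at 0.65. The control arrays of calves 25 and 23 stood at -1.05 and -0.98, and the other arrays between -0.19 and 0.35. The high array is again the one with raised control spots. Over the 8 arrays the members' average had an r of 0.61 with the log2 negative control signal and of 0.63 with the number of probes above background (rho 0.40 and 0.45), and the part of these in the members' levels was not tested. Without calf 24 the median pairwise r of the members was 0.67.

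The 10 genes outside the members whose pattern was most like this average, among 8807 genes above background on all arrays, had r from 0.96 to 0.99. They were EMID1, ASPN, MMP2, ANPEP, FBLN5, LOXL1, STAB1, FMOD, NID2 and AEBP1. Of these, 6 belong to the matrix lists described next: asporin (ASPN) and fibromodulin (FMOD) are relatives of decorin, FBLN5 takes part in elastic fibres, NID2 is a basement membrane protein, LOXL1 crosslinks elastin and collagen, and MMP2 is a gelatinase. ASPN gave a WP minus control difference of 0.74 ± 0.94 and FMOD of 0.86 ± 1.098 (SD, n = 4), with calf 21 at -0.64 for both. ANPEP, a surface peptidase, gave 0.80 ± 0.94 and STAB1, a scavenger receptor, 0.51 ± 0.60. All 10 were lower on the WP diet in calf 21 and higher in the other calves, a pattern that their choice by likeness favours.

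Other matrix genes were read from lists of the same biology. Of 10 tested collagen genes other than the members, 10 had positive differences, with a median of 0.46, and their mean standardized level had an r of 0.97 with that of the members. Of all tested genes 64.4% had positive differences. The medians of the collagen list in calves 21, 23, 24 and 25 were -0.42, 0.93, 0.61 and 0.69. COL6A1, a chain of the beaded-filament collagen VI, gave 0.61 ± 1.08 and its partner COL6A2 0.58 ± 0.75, with calf 21 at -0.92 and -0.39. COL10A1 gave 0.69 ± 0.33 (SD, n = 4) and was higher in 4 of 4 calves, like POSTN and 12% of all tested probes. It was named for its small p, a choice that favours this. Of 22 other proteoglycans and glycoproteins, 20 were positive, with a median of 0.57 and an r of 0.98. Their medians in the 4 calves were -0.52, 0.71, 0.85 and 1.09 in the same order. MFAP4, a microfibril-associated glycoprotein, gave 1.05 ± 0.63 and FBLN5 0.78 ± 0.80. MFAP4 was 1.84 in calf 24, whose WP array had raised control spots, and 0.79 to 1.30 with each calf left out. Biglycan (BGN), a close relative of decorin, had a negative mean of -0.57 ± 0.84. It gave -1.48, -1.04, -0.077 and 0.33 in calves 21, 23, 24 and 25. Its sign was opposite to the members' median in calves 23 and 24 and the same in calves 21 and 25. In each of these lists 0 genes passed the adjusted threshold in limma and 1 was higher at an unadjusted p below 0.05, as were 5.24% of all tested probes.

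Genes that process and remodel collagen are given next. Of 14 tested collagen processing genes 11 were positive, with a median of 0.13, beside 64.4% positive and a median of 0.09 for all genes. SERPINH1, the collagen chaperone HSP47, gave 0.11 ± 0.18, LOX, which starts crosslinking, 0.67 ± 1.39, and P3H1, a collagen prolyl hydroxylase, 0.30 ± 0.061. PLOD3, a lysyl hydroxylase, gave 0.67 ± 0.68, and -0.059 with quantile scaling. It was 1.60 in calf 24, whose WP array had raised control spots, and 0.36 to 0.87 with each calf left out. Of 9 proteases and inhibitors 8 were positive, with a median of 0.37. CTSK, the collagen-degrading cathepsin K, gave 0.90 ± 0.45 and ADAMTS1 0.50 ± 0.36. Both were higher in 4 of 4 calves, as were 12% of all tested probes, and both were named for a small p, which favours this. MMP2 gave 0.52 ± 1.08 and TIMP1, an inhibitor of such proteases, 0.069 ± 0.68, which was -0.19 without calf 23. None of the 14 or the 9 passed the adjusted threshold in limma, and 1 and 3 were higher at an unadjusted p below 0.05. This held for 5.24% of all tested probes.

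Ligands and receptors of the fibroblast were mixed. Of the PDGF ligands that PDGFRA and PDGFRB bind, PDGFA gave 0.25 ± 1.099, PDGFB -0.10 ± 0.36 and PDGFC 0.30 ± 1.18 (SD, n = 4). Each of these turned sign when 1 calf was left out, to -0.14 without calf 21, 0.069 without calf 25 and -0.24 without calf 24. In the TGF-beta list, 14 of 14 tested genes were positive, with a median of 0.48, and 3 were higher at an unadjusted p below 0.05. Of all tested genes 64.4% were positive, and 5.24% of all tested probes were higher at that limma threshold. CCN1, a matrix-associated protein induced by growth factors, gave 0.90 ± 0.66 and the receptor TGFBR2 1.04 ± 0.88. TGFBR2 was 2.20 in calf 24, whose WP array had raised control spots, and 0.65 to 1.32 with each calf left out. The ligand TGFB1 gave 0.21 ± 0.63 and turned to -0.088 with quantile and -0.010 with cyclic loess scaling. Of 8 receptors for collagen and fibronectin 5 were positive, with a median of 0.18 and an r of 0.074 with the members. This median was -0.020 with quantile scaling, 0.28 with no filter on dim probes, 0.079 and 0.058 within slide rows 1 and 2, 0.076 without calf 23 and 0.27 without calf 25. DDR2, a collagen receptor of fibroblasts, gave 0.51 ± 0.81 and the integrin chain ITGB1, which epithelium also makes, 0.17 ± 0.32. ITGB3 gave 0.36 ± 0.46 and, with quantile scaling, -0.13. Of 11 other fibroblast markers 11 were positive, with a median of 0.68 and an r of 0.91. Their medians in calves 21, 23, 24 and 25 were -0.28, 1.18, 0.94 and 0.47. The surface protein THY1 gave 0.81 ± 1.57, the intermediate filament VIM 0.47 ± 0.77, and the transcription factor TWIST2 0.85 ± 0.72. Podoplanin (PDPN) cleared background on every WP array but on only 1 with the control diet, so it entered the test through the WP arrays and its difference is not sized here. PDPN is still among the 11 markers counted above and enters their medians and r, and the filter favoured a positive sign for it. Of the genes counted in the lists below, 3 more cleared background on 1 array of a diet and on 3 of the other. No gene of these lists passed the adjusted threshold in limma.

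Markers of the other cell types in the rumen wall are given beside the members. Of 11 tested endothelial genes 10 were positive, with a median of 0.42 and an r of 0.86 with the members. Of all tested genes 64.4% were positive. The endothelial medians in calves 21, 23, 24 and 25 were -0.30, 1.56, 0.19 and 0.45. TIE1 and ROBO4 gave 0.99 ± 0.80 and 0.55 ± 0.69. ROBO4 was 1.55 in calf 24, whose WP array had raised control spots, and 0.22 to 0.73 with each calf left out. The summed level of the endothelial genes is the sum of unlogged levels over the list. It ran from 5.61 to 10.2 on the WP and from 4.28 to 7.63 on the control diet. Of 9 smooth muscle and pericyte genes 8 were positive, with a median of 0.38 and an r of 0.75. The pericyte marker RGS5 gave 0.50 ± 0.21 and TAGLN 0.46 ± 0.38. These were the 2 genes of the list higher in 4 of 4 calves, as were 12% of all tested probes, while 1 was lower in 4 of 4. RGS5 and TAGLN were named for the smallest p in the list, a choice that favours this. The list medians were 0.18, 0.047, 0.49 and 0.0077 in calves 21, 23, 24 and 25. The summed level of this list ran from 29.3 to 38 on the WP and from 30.0 to 39.6 on the control diet. The members' own summed level ran from 18.8 to 44.9 on the WP and from 10.3 to 40.8 on the control diet, so the groups overlapped in all 3. Of 7 macrophage and dendritic cell genes 4 were positive (median 0.05, r 0.72), with CD14 at -0.23 ± 0.27 (-0.12 without calf 21) and CD68 at 0.23 ± 0.64 (0.0031 to 0.46 with each calf left out, the lowest without calf 25), and a summed level of 4.08 to 7.58 on the WP and 4.13 to 10.8 on the control diet. Of 8 lymphocyte and plasma cell genes 1 was positive (median -0.29, r 0.38), with CD3G at -0.63 ± 1.63, and a summed level of 2.72 to 3.5 and 3.13 to 6.0. The medians of this last list in calves 21, 23, 24 and 25 were -1.06, -0.045, 0.31 and 0.17. The part of these cell types in the members' differences was not tested.

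Epithelial lists are given last. Of 15 basal epithelium and basement membrane genes 13 were positive, with a median of 0.28, an r of -0.12 with the members and a rho of 0. Their medians in calves 21, 23, 24 and 25 were 0.79, 0.40, -0.14 and -0.26. COL4A2, a basement membrane collagen, gave 0.38 ± 0.32 and KRT14 -0.49 ± 0.48. Of 8 suprabasal and cornified layer genes 7 were negative, with a median of -0.85, an r of -0.41 and a rho of -0.12. Of 10200 tested genes 3627 were negative. CST6 gave -0.76 ± 0.47 and SPINK5 -0.94 ± 0.68, both protease inhibitors of the outer layers. They were the 2 genes of the list that were lower in 4 of 4 calves, which held for 546 of 10200 tested genes. Both were named for the smallest p in the list, a choice that favours this. The summed level of the cornified list was 68.5 to 151 on the WP and 145 to 260 on the control diet. The cornified medians in calves 21, 23, 24 and 25 were -1.32, -0.64, -0.86 and 0.069, beside members' medians of -0.87, 0.63, 1.01 and 1.19. The signs were opposite in calves 23 and 24 and alike in calves 21 and 25.

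**Figure D4:**
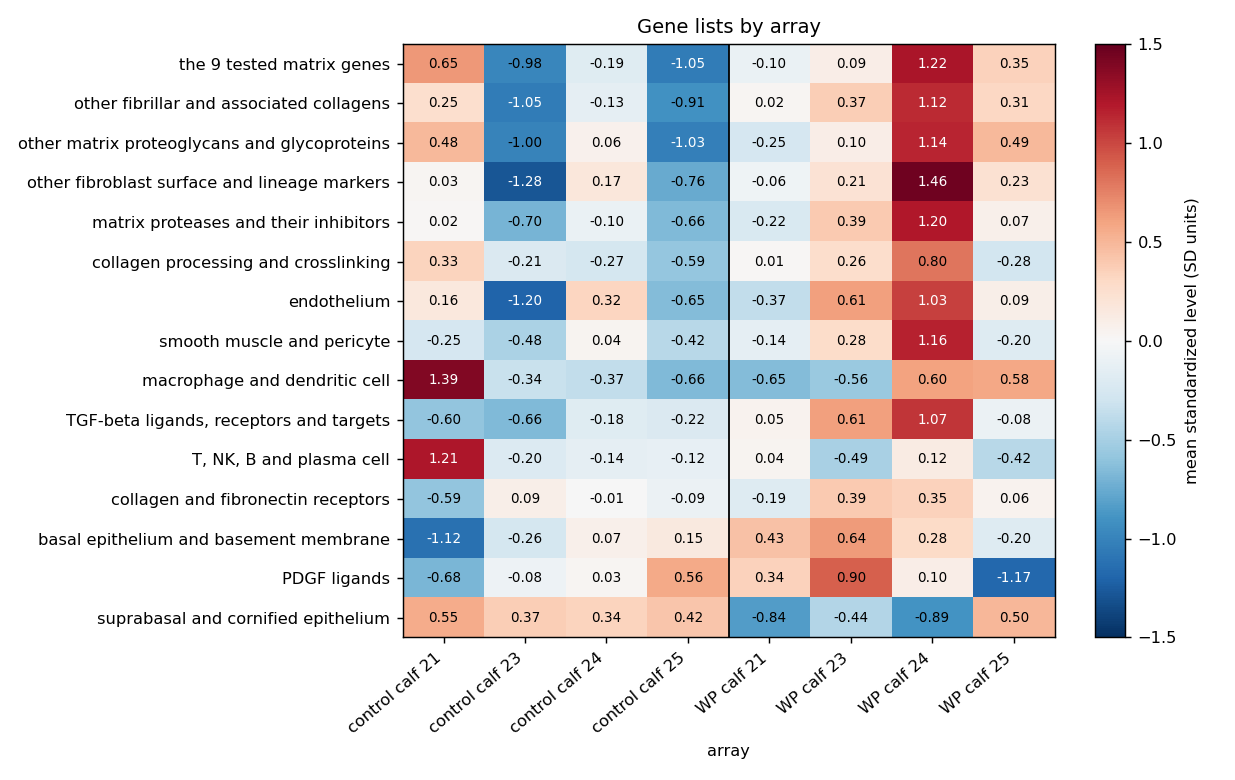
Mean standardized level (colour and printed value, SD units, each gene set to mean 0 and SD 1 over the 8 arrays) of the 9 tested matrix genes and 14 other lists (rows) on each array (columns, control left of the line and WP right). The matrix, fibroblast, endothelial and smooth muscle lists are all high on the WP array of calf 24, where the 9 matrix genes stand at 1.22, and the cornified list is low there.

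The arrays lay in 2 rows of 1 slide, with the WP arrays of calves 21 and 23 and the control arrays of calves 24 and 25 in row 1. Within row 1 the members' median difference was 0.49, and within row 2 it was 0.73. POSTN gave 0.71 in row 1 and 0.78 in row 2. These comparisons set different calves against each other, and 0 members passed the adjusted threshold in limma in either row.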

How the data were processed

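Per the labels' protocols, Cy3-labelled cRNA was made from 500 ng of total RNA. The intensity of each spot comes from the authors' deposited scanner output, in which Agilent Feature Extraction had subtracted background and detrended the processed signal within the array. The software version is 11.0.1.1 in the file headers, while the submitters' processing notes give 9.5. A value table from the authors is on a log2 scale. Checked against the scanner output, it equals the logged processed signal less 1 constant for each array (medians from -3.07 to -2.26), and it served as an alternative.

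Control spots (536 on the array) and outlier-flagged ones were dropped, spots of 1 probe were averaged, and each array's 75th percentile over probes was subtracted from log2 of the signal. Probes called well above background on 4 or more of 8 arrays entered the test (10236 of 15008, 68.2%), with the filter blind to diet. No spot was saturated. The number of arrays limits the precision, and a gene of another list is its brightest tested probe, matched by design name or through the RefSeq table of ARS-UCD2.0, which was used for names only. The diet contrast was fitted in R 4.3.3 by limma 3.58.1, using lmFit and eBayes with calf as a block and two-sided p-values, with Benjamini-Hochberg adjustment over all tested probes. The pairing comes from the labels and the cross-over in the series text. Within a calf, the deviations of both arrays from their diet's mean correlated at 0.0090, 0.195, 0.060 and 0.048 in calves 21, 23, 24 and 25. An exact sign-flip test over 4 calves cannot give a p below 0.125, so single genes have the limma test alone. The pipeline was tested on simulated data.

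The members, lists and tests were chosen with earlier results of these data known. Named genes are the members, the 2 of smallest p in each list, a fixed set of 14 matrix and receptor genes of which COL5A1 has no probe under that name, and the 10 named genes of highest r with the members' average. One gene that this rule names is not reported here. Alternatives covered background correction, scaling, the value table, the dim-probe filter, the calf block, slide row, the prior, probe choice, probe naming and each calf left out.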

Additional observations from a re-analysis of the deposited data

Results flagged for a closer look

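Of 45 groups of 4 values examined (each member's levels on each diet, its within-calf differences, and each list's within-calf medians), 3 held a sample whose gap to the nearest other exceeded Dixon's 95% critical value as a share of the group's range. Chance gives about 1 in 20. All 3 were the WP array of calf 24, the array with raised negative control and E1A spots. COL1A1 stood there at 0.90, against 0.43 to 0.50 on the other WP arrays. FN1 stood at 0.51, against -0.97 to -0.76. PDGFRB stood at -3.18, against -6.63 to -6.42, where it was not well above background. The part of the array's raised control signal in these 3 levels was not tested.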

How the results depend on the processing

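No probe and no member passed the adjusted threshold under any of the 15 and 17 alternatives run, and the members' median difference stayed positive, at 0.43 to 0.73 apart from calves left out and 0.24 to 0.99 with each calf left out. Without the calf as a replicate block it was 0.61, with 0 probes past the threshold. Quantile scaling moved the median of all probes from 0.09 to -0.015 and the members' median from 0.61 to 0.56. At an unadjusted p below 0.05, the 536 higher and 179 lower probes became 1134 and 293 with normexp background correction, 802 and 101 with no filter on dim probes, and 668 and 349 with slide row as a second block. The members' median pairwise r of 0.62 was 0.57 with normexp background correction, 0.52 with calf means removed as a replicate block, and 0.62 to 0.74 with each calf left out. Of 152 member differences recomputed, 6 changed sign. COL1A1, close to 0, was 0.0081 with cyclic loess, 0.051 within slide row 2 and -0.16 to 0.082 with each calf left out. DCN was -0.0054 to 0.88 with each calf left out. Among the other named genes, quantile scaling gave -0.059 for PLOD3, -0.13 for ITGB3 and -0.088 for TGFB1, and cyclic loess -0.042 for PDGFC and -0.010 for TGFB1. Within slide row 1 PDGFB was 0.0035 and TGFB1 -0.0090, and within row 2 CD14 was 0.0055. With each calf left out PDGFA ran from -0.14 to 0.58, PDGFB from -0.20 to 0.069, PDGFC from -0.24 to 0.71 and TIMP1 from -0.19 to 0.36. The cause of these changes was not tested, and of 238 recomputed list medians 231 stayed within the spread between calves. Of the other 7, 6 were of the collagen and fibronectin receptor list, whose median of 0.18 ran from -0.020 to 0.28, and 1 was of the PDGF ligand list, at -0.14 without calf 21. PDGFRA and PDGFRB lie near background, and their sizes are the least certain.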

Other observations

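The control array of calf 21, which was high for COL1A2, COL3A1, FN1, SPARC and LUM, was also the highest of the 8 arrays for the macrophage and dendritic cell list, at a mean standardized level of 1.39, and for the lymphocyte and plasma cell list, at 1.21. The basal epithelium list was at its lowest there, at -1.12. The WP array of calf 24, the highest for the matrix genes, stood at 0.60, 0.12 and 0.28 for these 3 lists. The lymphocyte and plasma cell list had an r of 0.38 with the matrix genes over the 8 arrays.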
